A study of Mus musculus with 5 samples.

Results

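The dose of the ΔL allele of Rb was examined by setting γH2AX chromatin of cells with 2 copies of the allele (RbΔL/ΔL) against that of cells with 1 copy (RbΔL/+). The groups were chosen by the genotype in the labels. They are 2 of the 4 ChIP libraries of the series and, with the input library as common reference, 3 of its 5 samples. All cells were primary mouse embryonic fibroblasts, proliferating at passage 4. RbΔL/+ cells carry 1 ΔL and 1 wild-type allele, RbΔL/ΔL cells carry only ΔL alleles, and the input is DNA that was not immunoprecipitated and has no genotype in its label. The labels give no other allele or agent, and they do not say how many embryos or which sex went into a library. There was 1 library for each genotype, so no difference below has a replicate check, no test between genotypes was run, and all intervals are 95% intervals that cover counting error only.

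H2AX is a histone variant that the kinases of the DNA damage response phosphorylate in the chromatin around breaks and stalled replication forks, and the phosphorylated form is γH2AX. RB, the retinoblastoma protein, restrains E2F transcription factors and also brings chromatin regulators to DNA. The ΔL allele alters the cleft of RB that holds proteins with an LXCXE motif, and the series title ties replication stress to haploinsufficiency of a complex of RB, E2F1 and Condensin II. Centromeric tandem repeats and many transposable elements lie in compact heterochromatin, which replication forks cross late and with difficulty.

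The deposited counts totalled 13731924 in RbΔL/+, 16061083 in RbΔL/ΔL and 17180437 in the input, spread over 12 repeat classes that include the unique genome. A share below is a class's count as a percentage of this total. The deposited peak lists hold 3789 and 1976 peaks for RbΔL/+ and RbΔL/ΔL, of which the 3691 and 1874 on chromosomes 1 to 19 were compared. The remaining 98 in RbΔL/+ (80 on X, 18 on Y) and 102 in RbΔL/ΔL (all on X) were set aside. The list deposited with RbΔL/+ is numbered 4 and that with RbΔL/ΔL is numbered 5, where the labels number these samples 3 and 4, and every peak result rests on the sample each list was deposited with. The ΔL allele itself cannot be checked in these files.

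The second ΔL allele went with a lower share of most repeat classes. All repeats together made up 10.97% of the counts in RbΔL/+, 10.4% in RbΔL/ΔL and 11.3% in the input, a ratio of RbΔL/ΔL to RbΔL/+ of 0.952 (0.9496 to 0.954). With satellites left out, the share of repeats was 7.84% in RbΔL/+, 7.26% in RbΔL/ΔL and 7.31% in the input, and the ratio between the genotypes was 0.926 (0.924 to 0.928). Of the 12 classes, 10 were lower in RbΔL/ΔL than in RbΔL/+, 9 of them with an interval that excluded 1, and 2 were higher, namely satellites and the unique genome. As a rule of size, a class was counted where the share in 1 genotype was at most 0.8 times that in the other. It counted 2 of the 12 classes as lower in RbΔL/ΔL (16.7%) and 0 as higher (0%). These 2 were the Pseudogene class and simple repeats. The input cancels in these ratios, so they do not depend on it. With the unique genome left out of the total, 8 of 11 classes were lower and 3 higher. With each library scaled to a median class ratio to input of 1, a step that moved RbΔL/ΔL against RbΔL/+ by -0.18 on the log2 scale, the split was 6 lower and 6 higher.

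The Pseudogene class, which by its name collects copies of genes that no longer make a protein or a working RNA, differed most. It held 8259 counts in RbΔL/+ (0.0601% of the total), 2726 in RbΔL/ΔL (0.0170%) and 1961 in the input (0.0114%). The share in RbΔL/ΔL was 0.282 times that in RbΔL/+ (0.270 to 0.295), which is 3.54-fold lower. Both ChIP libraries were above the input, and the intervals did not meet. On the 2 other scalings the ratio was 0.297 and 0.320, and hence nearly as low.

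Simple repeats, short motifs repeated in tandem that are prone to slippage and unusual DNA structures, came next. They took 0.293% of the counts in RbΔL/+, 0.211% in RbΔL/ΔL and 0.234% in the input. RbΔL/ΔL was at 0.720 times RbΔL/+ (0.710 to 0.730). With the median class ratio set to 1 the ratio was 0.817, so that simple repeats no longer passed the rule of size. The 2 libraries lay on opposite sides of the input, RbΔL/+ at 1.251 times (1.23 to 1.27) and RbΔL/ΔL at 0.900 times (0.887 to 0.913). The separate class of tandem repeats hardly differed, with 2.55% in RbΔL/+, 2.50% in RbΔL/ΔL and 2.54% in the input. Its ratio was 0.979 (0.975 to 0.984), and it lay above 1 on both other scalings (1.03 and 1.11).

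Retrotransposons, elements that spread through an RNA copy, were lower in RbΔL/ΔL in all 5 of their classes on the scale of all counts. The 5 classes, with other transposable elements grouped among them, together made up 4.89% of counts in RbΔL/+, 4.49% in RbΔL/ΔL and 4.49% in the input, so that RbΔL/ΔL stood at 0.919 times RbΔL/+ (0.916 to 0.922). Endogenous retroviruses, the relics of germline infections, carried most of this difference. Their share was 2.39% in RbΔL/+, 2.13% in RbΔL/ΔL and 2.12% in the input, with a ratio of 0.891 (0.887 to 0.895). SINEs, the short non-coding elements that depend on LINE proteins, went from 0.438% to 0.368%, around an input share of 0.396%, a ratio of 0.840 (0.830 to 0.849). On this scale SINEs, like simple repeats, were above the input with 1 ΔL allele and below it with 2. For SINEs this did not hold on the other scalings, where RbΔL/ΔL was level with the input without the unique genome (1.002, 0.991 to 1.01) and both libraries were below it with the median class ratio set to 1 (0.989 and 0.942). LINEs, the long elements that encode their own reverse transcriptase, were nearer to each other at 2.03% and 1.97% (ratio 0.969, 0.964 to 0.974). For LINEs the direction turned on both other scalings, to 1.02 and 1.099, and for endogenous retroviruses it turned to 1.01 with the median class ratio set to 1.

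The small classes were less precise. LTR retrotransposons had 764 counts in RbΔL/+ and 742 in RbΔL/ΔL, and their ratio was 0.830 (0.751 to 0.919). Other transposable elements stood at 0.859 (0.814 to 0.906) and the class named other at 0.869 (0.828 to 0.911). On shares of all counts, all 3 of these classes lay above the input in RbΔL/+, whereas their intervals in RbΔL/ΔL included the input level. With the median class ratio set to 1, their intervals in RbΔL/+ included the input level too. Without the unique genome in the total, RbΔL/ΔL was also above the input for other transposable elements (1.08, 1.03 to 1.14) and the class named other (1.06, 1.02 to 1.11). DNA transposons, which move by excision, had a ratio between the genotypes of 0.951 on shares of all counts. Its interval included 1 (0.902 to 1.00), so no difference was detectable on this scale at this depth. With the median class ratio set to 1 their ratio was 1.08 (1.02 to 1.14).

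RbΔL/ΔL was nearer to the input than RbΔL/+ for 9 of the 12 classes, the exceptions being DNA transposons, tandem repeats and the unique genome. The median distance of a class from the input was 1.13-fold in RbΔL/+ and 1.02-fold in RbΔL/ΔL. The number of nearer classes was 9 of 11 without the unique genome and 10 of 12 with the median class ratio set to 1. Of the 2 libraries, the one with both ΔL alleles thus had the count profile closer to unselected DNA.

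**Figure D1:**
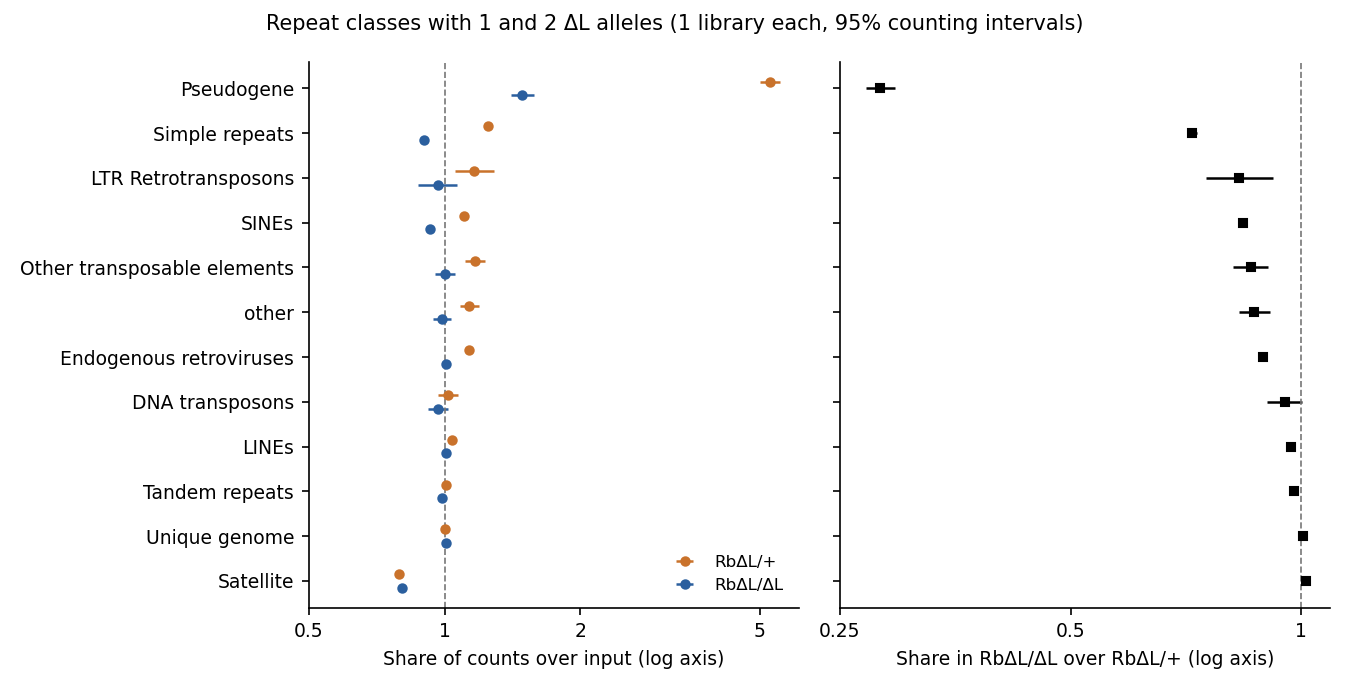
Left, share of counts of each of the 12 repeat classes divided by its share in the input, for RbΔL/+ (orange) and RbΔL/ΔL (blue); right, the share in RbΔL/ΔL divided by that in RbΔL/+; both axes are logarithmic, bars are 95% counting intervals and the dashed line marks equality. The Pseudogene class (0.282) and simple repeats (0.720) stand furthest to the left on the right, and only satellites and the unique genome lie above 1.

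Satellites, the long tandem arrays that form centromeric and pericentromeric heterochromatin, did not follow the other repeats. Their share was 3.13% in RbΔL/+, 3.18% in RbΔL/ΔL and 3.95% in the input. RbΔL/ΔL was 1.02 times RbΔL/+ (1.01 to 1.02), a difference larger than counting error but of only 0.0482 percentage points. No other class lay as far below the input in either library. On the other scalings the ratio was larger, 1.07 without the unique genome in the total and 1.15 with the median class ratio set to 1, and its direction held on all of them.

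The higher satellite share came from a single family. GSAT_MM, the major satellite of mouse pericentromeres, took 2.91% of counts in RbΔL/+ and 2.98% in RbΔL/ΔL against 3.73% in the input, a ratio of 1.02 (1.02 to 1.03). Its gain of 0.0701 points exceeded that of the whole class, since all other families together went the other way, from 0.221% to 0.1996% (ratio 0.901, 0.887 to 0.916). SATMIN, the minor satellite on which the kinetochore is built, was at 0.0511% in RbΔL/+, 0.0505% in RbΔL/ΔL and 0.0526% in the input. Its ratio of 0.987 (0.956 to 1.02) included 1. The major and minor satellites thus showed no shared shift that exceeded counting error.

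The other 5 families with more than 3 counts were all lower in RbΔL/ΔL. The rule of size counted 1 of the 7 families as lower in RbΔL/ΔL (14.3%) and 0 as higher (0%). That family was MurSAT1, with 316 counts in RbΔL/+, 203 in RbΔL/ΔL and 183 in the input, a ratio of 0.549 (0.460 to 0.655). It stood at 2.16 times the input in RbΔL/+, and with 2 ΔL alleles its interval included the input level (1.19, 0.972 to 1.45). ZP3AR had 513 and 483 counts in the 2 genotypes (ratio 0.805, 0.711 to 0.911), and IMPB_01 had 2550 and 2445 (0.820, 0.776 to 0.867). These 2 families were likewise above the input in RbΔL/+ and nearer to it in RbΔL/ΔL. SYNREP_MM, the largest of the 5, had 18789 and 19542 counts and a ratio of 0.889 (0.872 to 0.907). MMSAT4 had 1214 and 1275 counts and a ratio of 0.898 (0.830 to 0.971). For SYNREP_MM and MMSAT4 the shares of RbΔL/ΔL moved away from the input, to 0.831 and 0.884 times its level.

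As shares of satellite counts alone, all 7 ratios between the genotypes kept their direction and ran from 0.541 for MurSAT1 to 1.01 for GSAT_MM. On that scale every family except GSAT_MM lay above the input in both genotypes, and all 6 were higher above it with 1 ΔL allele than with 2. On shares of all counts SATMIN, SYNREP_MM and MMSAT4 were not above the input in either genotype. As shares of satellite counts these families are raised by the denominator. GSAT_MM makes up most of it, at 94.3% in the input, 92.9% in RbΔL/+ and 93.7% in RbΔL/ΔL. For SATMIN the ratio on this scale was 0.972 (0.942 to 1.00), which again included 1. The remaining 6 families had at most 2 counts in either library or the input. At these totals a count of 0 allows a share of up to 2.18e-05% in RbΔL/+ and 1.87e-05% in RbΔL/ΔL, and no ratio is given for them.

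**Figure D2:**
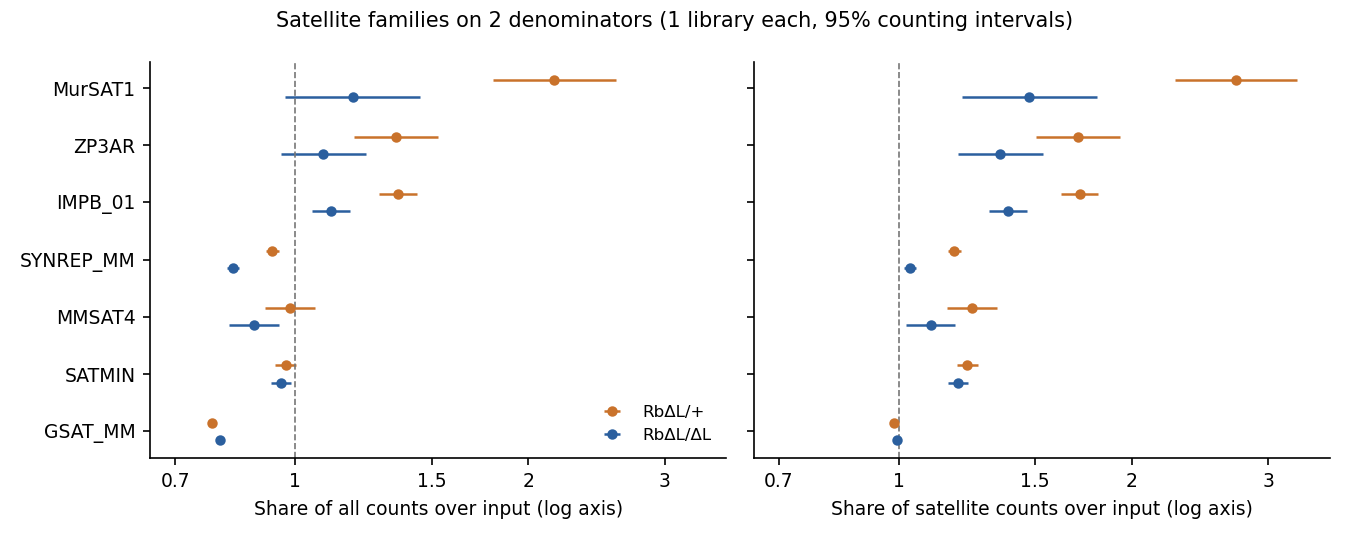
Share of 7 satellite families over their share in the input, as shares of all counts (left) and of satellite counts (right), for RbΔL/+ (orange) and RbΔL/ΔL (blue), on logarithmic axes with 95% counting intervals. GSAT_MM is the one family with RbΔL/ΔL to the right of RbΔL/+, and MurSAT1 has the widest gap (2.16 against 1.19 on the left).

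With Rb+/+ as the library without a ΔL allele, 1 of the 12 classes rose and 2 fell over 0, 1 and 2 alleles. Of the 6 possible orders of 3 values 2 are graded, and the numbers of graded orders were not tested against that share. Satellites were higher at each step (2.71%, 3.13% and 3.18%), as was GSAT_MM, while the Pseudogene class was lower at each step (6.11, 5.27 and 1.49 times the input). LINEs were also lower at each step, at 1.09, 1.04 and 1.01. Of the 7 satellite families 3 were graded, and besides GSAT_MM these were SYNREP_MM (0.153%, 0.137% and 0.122%) and MMSAT4 (0.0123%, 0.00884% and 0.00794%), both lower at each step. For 8 of the 12 classes RbΔL/+ was instead the highest of the 3 libraries, simple repeats (1.06, 1.251 and 0.900 times the input) and endogenous retroviruses (1.03, 1.13 and 1.01) among them. This number was 6 of 11 without the unique genome in the total and 4 of 12 with the median class ratio set to 1. Under the latter scaling RbΔL/+ was instead the lowest of the 3 libraries for 5 classes, endogenous retroviruses among them. The graded orders of satellites and of the Pseudogene class held on all 3 scalings, and that of LINEs did not. Rb-/- cells carry no ΔL allele either. With Rb-/- in place of Rb+/+, on shares of all counts, satellites and the Pseudogene class were not graded. Satellites in Rb-/- (3.15%) were above RbΔL/+, and the Pseudogene class (3.64 times the input) was below it. GSAT_MM (2.89% in Rb-/-), LINEs (2.35%), SYNREP_MM (0.174%) and MMSAT4 (0.0107%) kept their graded orders. Other features were graded only with Rb-/-. Lower at each step were other transposable elements (0.0199%, 0.0196% and 0.0168%), the class named other (0.0298%, 0.0242% and 0.0210%) and SATMIN (0.0595%, 0.0511% and 0.0505%). The unique genome was higher at each step (89.00%, 89.03% and 89.56%). Which features looked graded thus depended on the library taken as having no ΔL allele. All of these orders rest on 1 library per genotype.

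Peaks of γH2AX were fewer on the list of RbΔL/ΔL. It had 1874 autosomal peaks against 3691 in RbΔL/+, a ratio of 0.508, although its library had 1.17 times as many counts. Set against the counts of each library, the ratio was 0.434. The lists without a ΔL allele had 3609 autosomal peaks in Rb+/+ and 1546 in Rb-/-, so a short list was not particular to RbΔL/ΔL. The peaks covered 1470561 bp in RbΔL/+ and 608774 bp in RbΔL/ΔL, a ratio of 0.414, because those of RbΔL/ΔL were also narrower, with a median width of 321 bp against 408 bp. The middle part of the widths, from the lower to the upper quartile, was 287 to 342 bp in RbΔL/ΔL and 336 to 459 bp in RbΔL/+. Peaks wider than 1000 bp numbered 9 in RbΔL/ΔL and 10 in RbΔL/+, so the difference in number lay in narrow peaks.

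The authors' score of a peak, larger for a smaller p-value, was low for most peaks of both lists. Scores below 75 made up 77.9% of the RbΔL/+ list and 91.5% of the RbΔL/ΔL list, where the lowest scores were 50.07 and 50. The limit of 100 was reached or passed by 157 of the RbΔL/+ peaks (4.25%) and 19 of the RbΔL/ΔL peaks (1.01%). There the ratio of peak numbers was 0.121. In the lists without a ΔL allele, 786 of the Rb+/+ peaks (21.8%) and 719 of the Rb-/- peaks (46.5%) reached that limit. At equal rank the score was higher in RbΔL/+ than in RbΔL/ΔL throughout the ranks read. It was 2.26 times as high at rank 1 (3100 against 1372.33) and 2.30 times at rank 10 (367.74 against 159.94). At rank 100 it was 1.42 times as high (111.93 against 78.79) and at rank 1000 1.22 times (72.09 against 58.93). The excess was thus widest at the top. The score is not on one scale between libraries, and 3100 may be its upper limit, so these values describe the lists and not the amount of γH2AX.

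**Figure D3:**
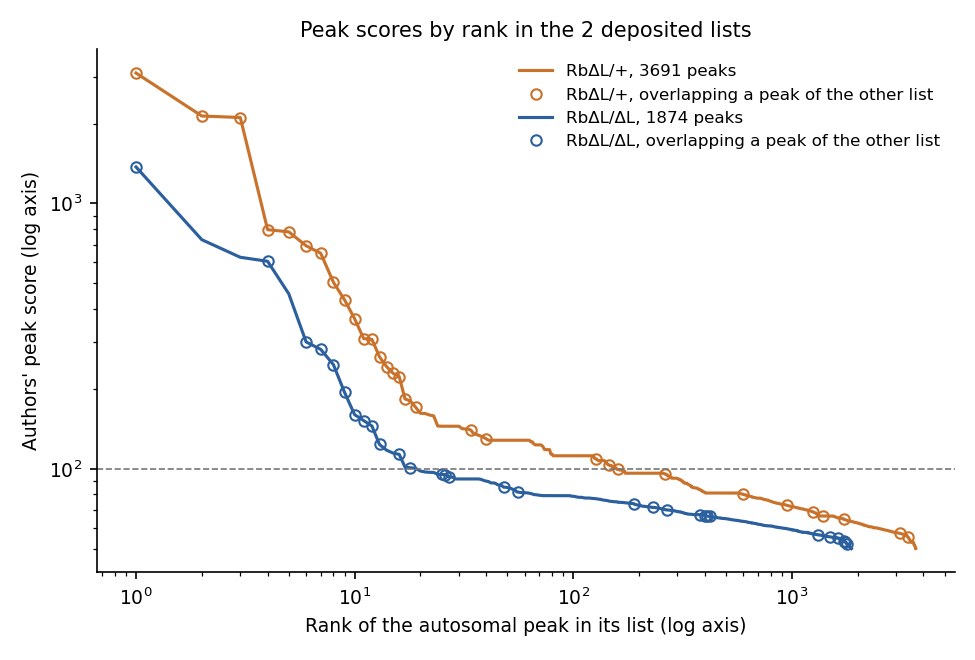
Authors' score against rank for the autosomal peaks of RbΔL/+ (orange, 3691 peaks) and RbΔL/ΔL (blue, 1874 peaks), both axes logarithmic; open circles mark peaks that overlap a peak of the other list and the dashed line marks a score of 100. The circles crowd at the highest ranks of both lists, and the blue line lies below the orange one along its whole length.

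The fewer peaks of RbΔL/ΔL were spread over the autosomes much as those of RbΔL/+. RbΔL/+ had more peaks on 19 of 19 autosomes, from 1.63 times as many on chromosome 16 (160 against 98) to 2.35 times on chromosome 7 (221 against 94), with a median of 1.99. As a share of its list, no chromosome had intervals that failed to overlap between the genotypes. Chromosome 1 held 8.26% of RbΔL/+ peaks and 7.04% of RbΔL/ΔL peaks, a share ratio of 0.852 (0.7004 to 1.04). Chromosome 16 held 4.33% and 5.23%, a ratio of 1.21 (0.944 to 1.54). At these numbers a shift of a chromosome's share was not detectable.

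Mouse autosomes have the centromere at the end where coordinates start. The first 10 Mb held 227 peaks of RbΔL/+ (6.15%, 5.40 to 6.97) and 121 of RbΔL/ΔL (6.46%, 5.39 to 7.67), a ratio of shares of 1.05 (0.848 to 1.30). The last 10 Mb below the highest peak of each chromosome, the telomeric end, held 355 (9.62%) and 161 (8.59%), a ratio of 0.893 (0.748 to 1.07). Both intervals included 1. The mouse assembly leaves out most of the satellite arrays, so these peaks do not stand in for the satellite counts above. Whether any of them lie in satellite sequence was not examined.

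**Figure D4:**
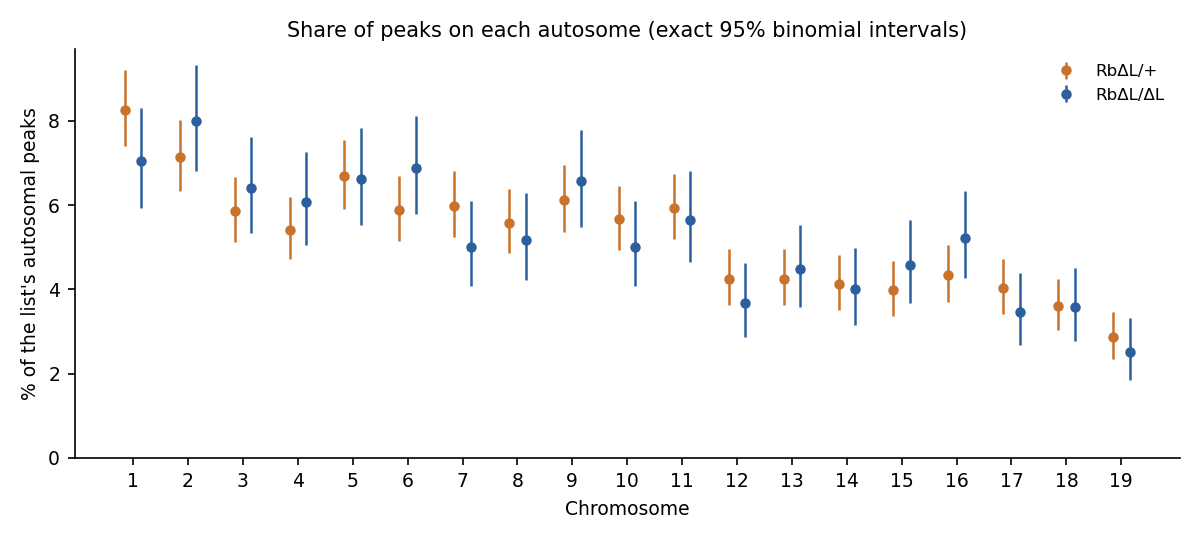
Percentage of each list's autosomal peaks on chromosomes 1 to 19 for RbΔL/+ (orange) and RbΔL/ΔL (blue), with exact 95% binomial intervals. The intervals overlap on every chromosome, with the widest ratio on chromosome 16 (4.33% against 5.23%).

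The places of the peaks were almost entirely different between the lists, as they were for every other pair of ChIP lists. Only 30 autosomal regions held a peak of both, formed by 31 peaks of RbΔL/+ (0.84% of its list, interval 0.571 to 1.19) and 31 of RbΔL/ΔL (1.65%, 1.13 to 2.34). The bases in both lists came to 21607, or 1.47% of the length covered in RbΔL/+ and 3.55% of that in RbΔL/ΔL. Near misses were few as well, since only 7 further RbΔL/+ peaks and 5 further RbΔL/ΔL peaks lay within 1 kb of a peak of the other list. The median distance from a RbΔL/ΔL peak to the nearest RbΔL/+ peak was 214 kb. Other pairs of ChIP lists shared from 14 to 33 regions, with 0.443% to 1.68% of a list's peaks overlapping, so low overlap was not particular to this pair.

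Overlap sat at the top of both lists. Among the 10 highest-scoring peaks it was 10 of 10 in RbΔL/+ and 7 of 10 in RbΔL/ΔL, and among peaks ranked below 200 it was 8 of 3434 (0.233%) and 13 of 1673 (0.777%). With a score of at least 100, 22 of 157 RbΔL/+ peaks (14.0%) and 12 of 19 RbΔL/ΔL peaks (63.2%) overlapped the other list, where the whole lists gave 0.84% and 1.65%. The highest score in a region was larger in RbΔL/+ for 27 of the 30 regions. Whether the input library also has more reads at these places was not examined.

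The 30 regions fell into sets that differ in how the scores of the 2 lists compare. In 13 regions the Rb+/+ and Rb-/- lists had a peak too, in 1 region Rb+/+ alone had one, and in 16 neither did. In the 13 regions of all 4 lists the score was higher in RbΔL/+ each time, by 2.26 to 13.9 times with a median of 3.57. In the 16 regions found with a ΔL allele only, the median was 1.11 times, and RbΔL/ΔL had the higher score in 3. The regions of the first set were also longer, with a median of 926 bp against 550 bp.

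**Figure D5:**
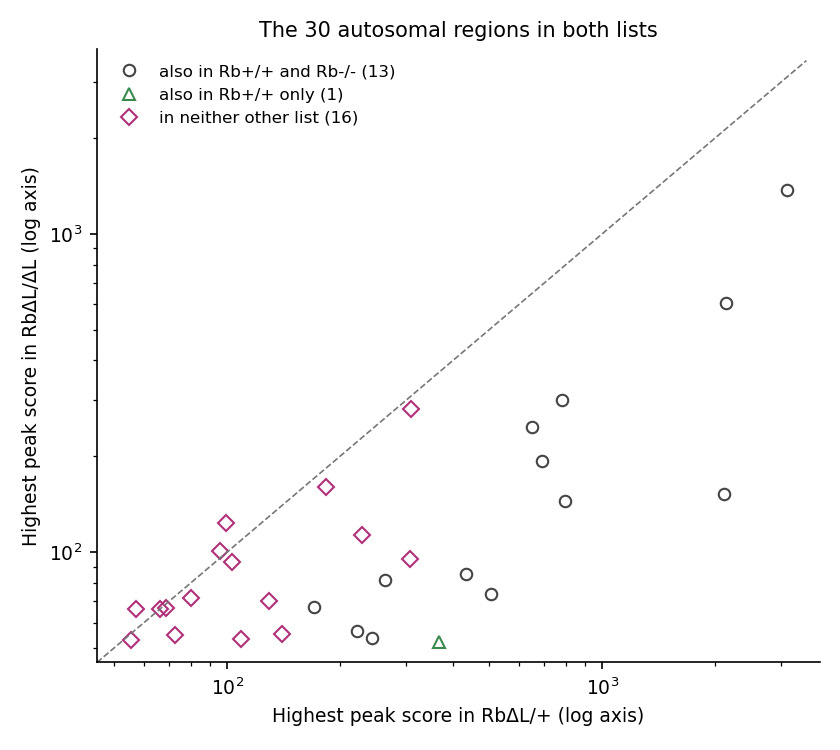
Highest peak score in RbΔL/+ (horizontal) and RbΔL/ΔL (vertical) for each of the 30 shared autosomal regions, on logarithmic axes, with the dashed line at equal scores. Circles are the 13 regions that also have a peak in Rb+/+ and Rb-/-, all below the line; diamonds are the 16 regions in neither of those lists, which lie closer to it; the triangle is the region shared with Rb+/+ alone.

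A stretch of 6026 bp on chromosome 17, at 39979882 to 39985907 (coordinates here and below are those of the deposited lists, build mm9), showed the widest gap in score. Peaks covered 97.6% of it in RbΔL/+ and 87.2% in RbΔL/ΔL. Its larger peak scored 2107.06 in RbΔL/+ and 151.91 in RbΔL/ΔL, which is 13.9 times less, and its smaller peak scored 504.4 and 73.7. Called peaks thus lay over most of the stretch in both lists. Its larger peak had rank 3 in the RbΔL/+ list and rank 11 in the RbΔL/ΔL list. In the other lists the highest score there was 2233.31 in Rb+/+ and 161.93 in Rb-/-.

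Next to the centromere of chromosome 9, between 2999972 and 3026219, 5 shared regions lay within 26248 bp. The highest of them, at 3023090 to 3024780, scored 796.37 in RbΔL/+ and 144.92 in RbΔL/ΔL. The region at 3001977 to 3002629 scored 432.84 and 85.25, that at 3006544 to 3006972 scored 264.22 and 81.64, and that at 2999972 to 3001810 scored 242.72 and 53.66. All were lower in RbΔL/ΔL, as was the fifth, at 3024956 to 3026219 (170.73 and 67.15). RbΔL/+ had 8 peaks over 6854 bp in this stretch and RbΔL/ΔL had 6 over 4006 bp.

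The group on chromosome 2 at 98502291 to 98507574 was the strongest in both genotypes. Its 3 peaks scored 3100, 2135.28 and 648.92 in RbΔL/+ and 1372.33, 605.25 and 246.82 in RbΔL/ΔL. They covered nearly the same length, 2521 bp and 2455 bp. The order of the 3 peaks was the same in both lists, and the scores of RbΔL/+ were 2.26 to 3.53 times as high. Chromosome 9 at 35112687 to 35113239 (781.41 and 300.68), chromosome 6 at 103598966 to 103599514 (692.54 and 193.84) and chromosome 12 at 3109783 to 3110262 (222.55 and 56.39) made up the rest of the regions found in all 4 lists. On chromosome 15 at 74915661 to 74917567, where Rb+/+ had a low peak (66.66), the scores were 367.74 and 52.02.

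The regions seen with a ΔL allele only included 2 pairs of neighbours. On chromosome 11 the peaks at 87236216 to 87236975 (309.45 in RbΔL/+ and 281.76 in RbΔL/ΔL) and at 87240042 to 87240865 (228.92 and 113.29) were 3066 bp apart. On chromosome 9 those at 65044130 to 65044683 (307.29 and 95.19) and at 65049254 to 65049799 (183.41 and 159.94) were 4570 bp apart. These 4 regions were among the 50 highest peaks of both lists, and RbΔL/+ had the higher score in each, by up to 3.23 times. The 3 regions where RbΔL/ΔL had the higher score were on chromosome 4 at 116862451 to 116862907 (95.45 and 100.87), chromosome 11 at 101519475 to 101519927 (99.43 and 123.45) and chromosome 8 at 125991315 to 125991889 (57.05 and 66.11). The largest in length lay near the centromere of chromosome 11, at 3031298 to 3034265 (139.95 and 55.4).

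The other 8 regions of this set had scores from 55.44 to 129.57 in RbΔL/+ and from 53.03 to 93.23 in RbΔL/ΔL. They lay on chromosome 12 at 55797601 to 55798127, chromosome 10 at 39978078 to 39978486, chromosome 4 at 104589372 to 104589731, chromosome 1 at 35658483 to 35659181, chromosome 5 at 35290402 to 35290850 and at 56468768 to 56469232, and chromosome 17 at 3081462 to 3082526 and at 27399167 to 27400069. Most are weak in both lists, and the overlap was as short as 55 bp in 1 of them. A shared place that no library without a ΔL allele had was thus found 16 times, whereas pairing RbΔL/+ with Rb+/+ gave 13 of 33 shared regions absent from the remaining lists, and the other 4 pairs of lists gave 1 to 5. The lists differ in length, so these numbers are not on one scale.

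Peaks without a counterpart reached higher scores in RbΔL/ΔL than in RbΔL/+ at 1 place only. Elsewhere their scores reached 117.51 in RbΔL/ΔL and 180.02 in RbΔL/+. The 3 peaks with which RbΔL/ΔL departed from RbΔL/+ in its highest 10 adjoined each other on chromosome 11, from 74578883 to 74583510. They scored 729.91, 626.6 and 456.21 and covered 96.4% of these 4628 bp, with 167 bp between them in all. No other list had a peak there, and the nearest of RbΔL/+ was 15.7 kb away with a score of 58.89. Among the 19 RbΔL/ΔL peaks at or above 100, the other 4 without a counterpart scored 100.42 to 117.51, on chromosomes 13, 14 and 15. Beyond the chromosome 11 run, the high-scoring peaks of RbΔL/ΔL were hence mostly at places where RbΔL/+ had a peak too.

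RbΔL/+ had 135 peaks with a score of at least 100 and no counterpart in RbΔL/ΔL, none of them above 180.02. It also had the longest run of peaks with gaps under 10 kb, 6 peaks on chromosome 19 at 5829819 to 5841374. Their scores were 58.28 to 98.69, and they covered 2707 bp, or 23.4% of the run. RbΔL/ΔL had no peak in it, nor had the other lists. Runs of 2 or more peaks numbered 74 in RbΔL/+ and 26 in RbΔL/ΔL and held 4.31% and 2.99% of their peaks, while runs of at least 3 numbered 4 in each. In RbΔL/+ the next runs were the 5 peaks at 3021987 to 3036576 and the 5 at 2999972 to 3011658 of chromosome 9 and the chromosome 2 group. In RbΔL/ΔL the runs of 3 were the chromosome 2 group, the chromosome 11 stretch and 2 at the start of chromosome 9. The fifth longest run of each list had 2 peaks and scores up to 67.1 (chromosome 17 at 27437833 to 27448671, RbΔL/+) and 63.02 (chromosome 14 at 98957244 to 98967836, RbΔL/ΔL). Genes at these places are not named, since annotation of mm9 was not used here.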

How the data were processed

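The authors deposited, for each library, whole-number counts per repeat class and per satellite family and, for each ChIP library, a peak list with a score per peak. Per the submitters' processing notes, Bowtie 1.0, MACS 1.4.2 and mm9 were used, without a stated role or order. The sources used here do not say how multi-mapping and duplicate reads were handled or which control and threshold served for peak calling. The score is read as a transformed p-value from the peak names that MACS writes.

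Shares were computed over the sum of all classes. Ratios carry 95% intervals on the log ratio, and single shares exact (Clopper-Pearson) intervals. A count of 0 allows up to 3 counts. Both genotype ratios to input share the input library. Without molecular identifiers, reads need not be separate molecules. Autosomal peaks (chromosomes 1 to 19) that had 1 bp or more in common were joined into regions, and coordinates count from 1. With 1 library per genotype a class or family was counted where 1 share was at most 0.8 times the other, in place of a test. The groups, classes and lists were chosen with earlier results of these data known. Named were all classes and families, the 10 highest peaks and 5 longest runs per list, all shared regions (at most 30) and chromosomes whose intervals did not overlap. Others (the 4 further RbΔL/ΔL peaks with a score of at least 100, chromosomes 1, 7 and 16) were chosen after their values were seen.

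On simulated counts for this comparison over 12 classes, intervals covered the known ratio in 94.1% to 97% of 1000 draws, and overlaps planted in a simulated list were recovered in 100 of 100 cases, with bedtools 2.31.1 giving the same number. Scripts ran on Python 3.11.15 (scipy 1.17.1, pandas 2.3.3, numpy 2.4.6, matplotlib 3.10.9). Alternatives were other denominators, median scaling, other folds, score limits, overlaps, merging, windows, equal list lengths and inclusion of X and Y.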

Additional observations from a re-analysis of the deposited data

Results flagged for a closer look

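The Y chromosome, outside the autosomes compared, held 18 peaks in RbΔL/+, between 2779645 and 2892245 (mm9), and 0 in RbΔL/ΔL and in the lists of both genotypes without a ΔL allele. Their scores ran from 51.77 to 132.31 with a median of 74.46. The labels give no sex for any library, and the part of sex in the differences between RbΔL/+ and RbΔL/ΔL was not tested.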

How the results depend on the processing

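The direction of the satellite ratio and of the peak number ratio held under every alternative run. The satellite ratio of 1.02 moved to 1.07 without the unique genome in the total and to 1.15 when each library was scaled to its median class. Under the latter scaling the count of classes past the rule of size (at most 0.8 times) went from 2 to 1, with simple repeats (0.817) lost. It was 7 at 1.1-fold and 1 at 1.5-fold. Scaled to the median class, the ratios of DNA transposons (1.08), endogenous retroviruses (1.01), LINEs (1.099) and tandem repeats (1.11) turned above 1. Without the unique genome those of LINEs (1.02) and tandem repeats (1.03) did. The counts being the same, these changes come from the scaling alone. The peak number ratio of 0.508 was 0.121 at a score of at least 100 and 0.414 for covered length. At that score limit 10 regions were shared in place of 30. The other 4 alternatives for shared regions gave 25 to 31. The ratio of shares in the first 10 Mb, 1.05, was 0.841 for 5 Mb and 0.551 at a score of at least 100, where it rests on 1 RbΔL/ΔL peak and its interval is 0.0770 to 3.94. Including X and Y it was 0.967. No paired analysis was possible because each genotype has 1 library. Depth limits MurSAT1 (203 counts in RbΔL/ΔL), ZP3AR (483) and LTR retrotransposons (742) most.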

Other observations

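As a description, the median difference between 2 ChIP libraries over the 12 classes was 0.18 on the log2 scale for RbΔL/+ and RbΔL/ΔL, 0.19 for RbΔL/+ and Rb+/+, and 0.10 to 0.13 for the 4 other pairs. On shares of all counts, the 2 libraries with a ΔL allele were therefore not the most alike in repeat counts. The other scalings were not tried for these pairs. The ratio of LINE to SINE counts was 4.64 in RbΔL/+, 5.36 in RbΔL/ΔL and 4.93 in the input, so that the 2 genotypes lay on opposite sides of the input, a ratio that does not depend on the total. That of endogenous retrovirus to LINE counts was 1.18, 1.08 and 1.08, and that of GSAT_MM to SATMIN counts was 56.9, 59.0 and 70.8, in the same order.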
